A study of Mus musculus with 7 samples.

Results

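Transcripts of 41 interferon response genes were examined in C2C12 cells, an established line of mouse skeletal myoblasts, after knockdown of either of 2 related histone H3 lysine 9 methyltransferases. The genes were listed by symbol as well-known targets of interferon signalling, with earlier results of these data known. Shares of the list set beside those of all genes are therefore descriptive. A gene was read from its probe set with 1 symbol in the array annotation, taking the probe set with the highest mean where there were several. By this rule 38 of the 41 genes were measured, among 22180 genes tested in all. Dtx3l and Gbp2 were represented only by probe sets shared with a second gene, and Ifi44 was not analysed here. The groups were cells transfected with an siRNA against G9a (siG9a, 3 samples), an siRNA against GLP (siGLP, 2 samples) and a control siRNA (Control, 2 samples). All cells were grown in serum-rich medium and all received an siRNA with a transfection reagent, so no untransfected group stands beside them, and the labels name no treatment with interferon. Effects of an siRNA on transcripts other than its target were not tested. Each sample was 1 single-colour Affymetrix array, values are log2 signals after RMA, and a difference of 1 on this scale is a change by a factor of 2. The labels do not say that samples of a group came from different cultures, so each p-value reflects the spread among these arrays alone, possibly technical, and their small number limits the precision of every value.

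Interferons are secreted proteins that cells make when sensors such as RIG-I and MDA5 meet foreign RNA or when other sensors meet misplaced DNA. They bind receptors on the same or neighbouring cells and activate JAK kinases, which phosphorylate STAT proteins. A complex that includes STAT2 and IRF9 then binds a short promoter element, the interferon-stimulated response element or ISRE, and switches on a large set of antiviral genes. G9a and GLP place a repressive methyl mark on histone H3, and G9a has been linked in other mouse cells to restraint of interferon genes.

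The promoter element is shown first, because it is the site through which genes of this kind are known to respond. The motif searched was GAAA, then any 2 bases, then GAAA, on both strands with overlapping matches allowed, in windows reaching from 250 bases before to 50 bases after each annotated start, from RefSeq on GRCm38.p6. It was found for 15 of the 29 measured genes that had a window (51.7%), against 657 of 16990 tested genes with a window (3.87%) and 3.44% of all 32851 windows. The motif TTCNNNGAA (N is any base), known as GAS, reads the same on both strands and was found for 7 of the 29 (24.1%), against 9.15% of tested genes with a window. A match is a description of the letters, not evidence of a working site. The windows of 6 genes with an ISRE match and comparatively small p-values in these arrays are given 5′ to 3′ along the gene's strand, with the matched letters in capitals.
Ifih1: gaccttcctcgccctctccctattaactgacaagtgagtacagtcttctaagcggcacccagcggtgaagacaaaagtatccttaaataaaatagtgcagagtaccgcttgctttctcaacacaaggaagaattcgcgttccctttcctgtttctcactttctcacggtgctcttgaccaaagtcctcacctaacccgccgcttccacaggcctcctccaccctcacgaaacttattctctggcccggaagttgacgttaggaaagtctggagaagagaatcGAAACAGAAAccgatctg
Trim21: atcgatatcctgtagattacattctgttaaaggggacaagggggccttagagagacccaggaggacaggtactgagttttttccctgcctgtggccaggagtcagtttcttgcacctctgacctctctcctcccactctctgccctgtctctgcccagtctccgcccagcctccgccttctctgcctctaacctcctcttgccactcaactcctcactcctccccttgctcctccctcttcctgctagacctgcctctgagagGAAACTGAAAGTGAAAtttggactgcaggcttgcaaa
Trim30a: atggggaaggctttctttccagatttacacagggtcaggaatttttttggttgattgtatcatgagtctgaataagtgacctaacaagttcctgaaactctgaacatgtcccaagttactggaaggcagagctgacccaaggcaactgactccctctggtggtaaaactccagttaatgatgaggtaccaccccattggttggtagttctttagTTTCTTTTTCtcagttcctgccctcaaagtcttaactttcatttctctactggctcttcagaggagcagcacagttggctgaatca
Gbp3: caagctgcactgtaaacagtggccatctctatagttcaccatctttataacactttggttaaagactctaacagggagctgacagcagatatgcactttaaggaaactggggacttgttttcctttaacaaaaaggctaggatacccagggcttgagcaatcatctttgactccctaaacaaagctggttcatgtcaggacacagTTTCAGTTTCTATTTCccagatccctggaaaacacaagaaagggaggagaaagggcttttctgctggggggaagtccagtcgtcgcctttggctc
Ddx58: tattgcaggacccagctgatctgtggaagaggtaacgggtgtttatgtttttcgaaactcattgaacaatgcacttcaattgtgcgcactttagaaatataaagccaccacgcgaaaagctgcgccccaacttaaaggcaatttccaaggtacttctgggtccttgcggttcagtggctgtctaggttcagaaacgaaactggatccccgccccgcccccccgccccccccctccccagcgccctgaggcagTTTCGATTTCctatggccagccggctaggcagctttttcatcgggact
Eif2ak2: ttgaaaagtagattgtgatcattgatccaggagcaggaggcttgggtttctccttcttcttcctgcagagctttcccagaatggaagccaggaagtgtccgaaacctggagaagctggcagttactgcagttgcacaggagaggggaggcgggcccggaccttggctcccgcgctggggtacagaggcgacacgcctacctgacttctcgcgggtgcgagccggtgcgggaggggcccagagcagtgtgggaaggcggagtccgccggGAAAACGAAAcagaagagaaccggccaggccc
The Ifih1 window covers chr2:62646206-62646505 on the minus strand, Trim21 chr7:102565433-102565732 on the minus strand and Trim30a chr7:104465144-104465443 on the minus strand. The Gbp3 window covers chr3:142559794-142560093 on the plus strand, Ddx58 chr4:40239776-40240075 on the minus strand and Eif2ak2 chr17:78882523-78882822 on the minus strand. Trim21 and Gbp3 each held 2 overlapping matches, which form a run of 3 repeats of GAAA or TTTC. The matches lay close to the annotated start in all 6 windows, between 45 bases before it in Gbp3 and 42 bases after it in Ifih1.

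The knockdowns and the identity of the cells were checked first. Ehmt2, which encodes G9a, had log2 signals of 6.31, 6.14 and 5.99 in siG9a, 7.37 and 7.37 in siGLP, and 7.56 and 7.46 in Control. Ehmt1, which encodes GLP, had 6.74, 6.60 and 6.53 in siG9a, 5.73 and 6.13 in siGLP, and 6.71 and 6.73 in Control. Ehmt2 fell in siG9a (log2 difference -1.37, limma, Benjamini-Hochberg adjusted p = 0.0308), while Ehmt1 in siGLP, at -0.79, did not pass (limma adjusted p = 0.197). With any 1 array left out, Ehmt2 in siG9a stood between -1.45 and -1.29 and no longer passed (limma adjusted p from 0.0787 to 0.426). The myoblast markers Myod1, Myf5, Pax7, Des and Cdh15 lay above the median of all probe sets on every array. Their mean log2 signal was 7.74 to 7.88 in siG9a, 7.87 to 7.93 in siGLP, and 8.12 to 8.13 in Control. Of these 5 markers, 4 lay below Control in siG9a and 5 in siGLP, and none passed. Myod1 averaged 6.95 in siG9a, 7.63 in siGLP and 7.63 in Control, while Cdh15 averaged 7.21, 7.21 and 7.72. In siGLP minus siG9a none of the 5 markers passed either (smallest limma adjusted p = 0.1004). Of 7 leukocyte markers, 1 to 3 exceeded the array median, and their mean was 4.44 to 4.50 in siG9a, 4.33 to 4.50 in siGLP, and 4.30 to 4.38 in Control. The defining leukocyte gene Ptprc stayed between 2.73 and 2.93 on all arrays, in the dimmest range of the array (lower quartile 3.32 to 3.36), whereas Cd68, which encodes a lysosomal protein, stood 0.62 above Control in siG9a and 0.54 above it in siGLP. Of 4 endothelial markers, at most 1 exceeded the array median. The part of these shifts in the interferon gene results was not tested, and in RNA from whole dishes fewer cells of a type and less RNA per cell cannot be told apart.

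In siG9a, 29 of the 38 interferon response genes lay above Control and 9 below, with a median log2 difference of 0.074, against 51.7% of all genes above Control and a median of 0.0052. None of the 38 passed at an adjusted p under 0.05, where 0.0271% of all genes did, and the smallest limma adjusted p among them was 0.256. At an unadjusted p under 0.05, 8 lay above Control (21.1% of the 38, against 5.95% of all genes) and 1 lay below (2.63%, against 4.57%). All siG9a arrays exceeded both Control arrays for 15 genes (39.5%, against 14% of all genes), and all lay under both for 3 (7.89%, against 11.7%). The lower count was 7 without Control 2 (18.4%, against 23.9%) and 5 without siG9a 1 or Control 1 (13.2%, against 17.6% and 24.2%). The 8 genes at an unadjusted p under 0.05 became 1 without Control 2 (2.63%, against 6.04% of all genes), 5 without siG9a 1 (13.2%, against 5.42%), 5 without siG9a 3 (13.2%, against 4.55%) and 3 without variance moderation (7.89%, against 4.90%).

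In siGLP, 23 of the 38 lay above Control and 15 below, with a median of 0.054, against 50.4% of all genes and a median of 0.0015. None passed (smallest limma adjusted p = 0.225, with 0.00451% of all genes passing). At an unadjusted p under 0.05, 8 lay above Control (21.1%, against 4.51% of all genes) and 1 lay below (2.63%, against 4.13%). Both siGLP arrays exceeded both Control arrays for 16 genes (42.1%, against 17.4%), and both lay under for 6 (15.8%, against 16.9%). Without siGLP 1 the counts were 17 above (44.7%, against 32.7%) and 11 below (28.9%, against 31.4%), and without Control 2 they were 19 (50%, against 32.8%) and 9 (23.7%, against 30.1%). The 8 genes at an unadjusted p under 0.05 became 2 without Control 2 (5.26%, against 4.61% of all genes), 2 without siGLP 1 (5.26%, against 4.0%) and 2 without variance moderation (5.26%, against 3.91%). Both comparisons use the same Control arrays, so their results are not independent of each other.

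The median over the 38 genes was also taken on each array, relative to the mean of the Control arrays. It was 0.11, 0.068 and 0.081 in siG9a, 0.13 and 0.016 in siGLP, and 0.042 and -0.042 in Control. The 2 Control values mirror each other because they are taken from their own mean, so they understate the spread of Control. The siG9a arrays lay above both Control arrays, while siGLP 2 lay between them. The same median over all genes was between 0 and 0.0048 on every array.

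**Figure D1:**
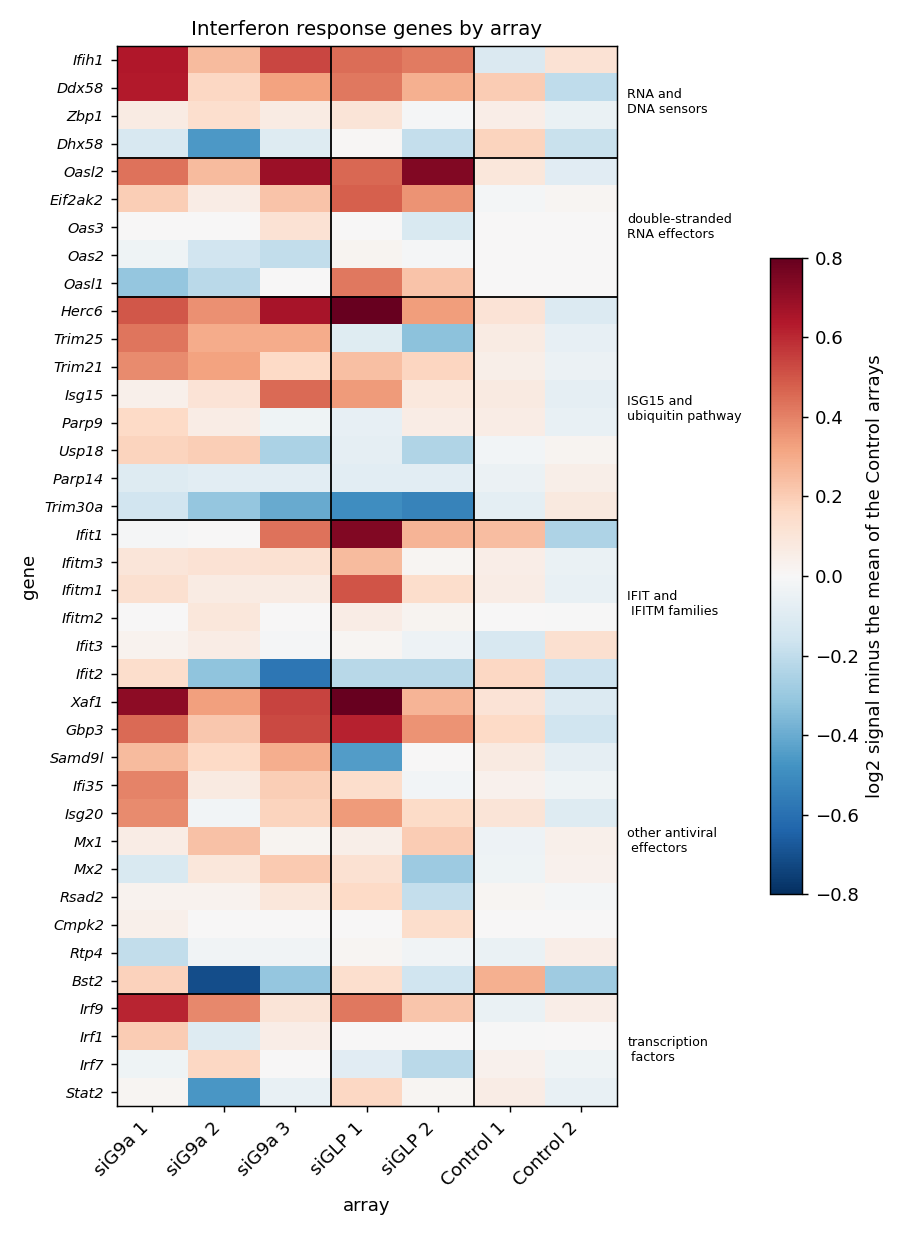
Log2 signal of the 38 measured interferon response genes on each of 7 arrays, as the difference from the mean of the Control arrays (colour scale, red above and blue below); rows are genes grouped by role and ordered by their siG9a difference, columns are arrays. Ifih1, Oasl2, Herc6, Xaf1 and Gbp3 are red on all siG9a and siGLP arrays, whereas most rows, such as Oas3, Cmpk2 and Ifitm2, are pale throughout.

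Of 4 sensors of foreign nucleic acid, 3 lay above Control in siG9a (median 0.23) and 3 in siGLP (median 0.20). The largest difference belonged to Ifih1, which encodes MDA5, a sensor of long double-stranded RNA and the gene of the first window above. Ifih1 had log2 signals of 5.0, 4.61 and 4.90 in siG9a, 4.81 and 4.78 in siGLP, and 4.25 and 4.47 in Control. Every array of both knockdowns lay above both Control arrays. The difference was 0.48 in siG9a (SE 0.13, 1.39-fold; limma adjusted p = 0.256) and 0.43 in siGLP (SE 0.14, 1.35-fold; limma adjusted p = 0.44). Ddx58, which encodes RIG-I, the sensor of RNA with a 5′ triphosphate, had 6.11, 5.64 and 5.80 in siG9a, 5.90 and 5.76 in siGLP, and 5.68 and 5.28 in Control. Its siG9a arrays overlapped Control while its siGLP arrays did not, with differences of 0.37 in siG9a (limma adjusted p = 0.503) and 0.35 in siGLP (limma adjusted p = 0.686). Dhx58, which encodes the related regulator LGP2, stood at -0.23 in siG9a and -0.09 in siGLP, with overlapping arrays. Zbp1, a sensor of Z-form nucleic acid that can trigger necroptosis, stood at 0.09 in siG9a and 0.05 in siGLP.

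Of 5 enzymes and relatives that act on double-stranded RNA, 3 lay above Control in siG9a (median 0.039) and 4 in siGLP (median 0.32). Oasl2, a member of the oligoadenylate synthetase family, had log2 signals of 4.38, 4.20 and 4.63 in siG9a, 4.41 and 4.69 in siGLP, and 4.04 and 3.86 in Control. Every knockdown array was above both Control arrays, with a difference of 0.46 in siG9a (SE 0.15, 1.37-fold; limma adjusted p = 0.343) and 0.60 in siGLP (SE 0.16, 1.52-fold; limma adjusted p = 0.357). Eif2ak2 encodes PKR, the kinase that halts translation when it binds double-stranded RNA. It had 7.22, 7.09 and 7.25 in siG9a, 7.50 and 7.39 in siGLP, and 7.01 and 7.04 in Control. The 3 groups did not overlap, and siGLP was the highest, at 0.42 above Control (SE 0.084, 1.34-fold; limma adjusted p = 0.225), with siG9a at 0.16 (SE 0.077; limma adjusted p = 0.53).

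Oasl1 encodes a family member without synthetase activity that in mice restrains translation of Irf7. It had 4.39, 4.49 and 4.70 in siG9a, 5.12 and 4.93 in siGLP, and 4.70 and 4.70 in Control. The siGLP arrays were the highest and the siG9a arrays reached no higher than Control, with differences of -0.18 in siG9a (limma adjusted p = 0.626) and 0.32 in siGLP (limma adjusted p = 0.513). Oas2 and Oas3, which make the second messenger that activates RNase L, stood at -0.13 and 0.04 in siG9a, and at 0.005 and -0.06 in siGLP. Oas2, Oas3, Oasl1 and Oasl2 all map to chromosome 5, and they did not stand on one side of Control together.

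ISG15 is a ubiquitin-like protein that is attached to other proteins, and several genes of the list encode its machinery or ubiquitin ligases. Of 8 such genes measured, 6 lay above Control in siG9a (median 0.13) and 3 in siGLP (median -0.04). Herc6, the main ISG15 ligase in mice, had log2 signals of 6.06, 5.92 and 6.22 in siG9a, 6.38 and 5.90 in siGLP, and 5.67 and 5.45 in Control. Control was lower on both of its arrays than every knockdown array, with differences of 0.51 in siG9a (SE 0.16, 1.42-fold; limma adjusted p = 0.342) and 0.58 in siGLP (SE 0.18, 1.49-fold; limma adjusted p = 0.418). Isg15 itself, which is among the 15 genes with the ISRE motif, had 4.67, 4.74 and 5.08 in siG9a, 4.97 and 4.71 in siGLP, and 4.70 and 4.55 in Control. Its siG9a arrays overlapped Control, and it stood at 0.20 in siG9a (limma adjusted p = 0.67) and 0.21 in siGLP (limma adjusted p = 0.779). Usp18, which removes ISG15 and restrains the interferon receptor, stood at 0.04 in siG9a and -0.16 in siGLP. Parp9 and Parp14, ADP-ribosyltransferases of the antiviral response, stood at 0.06 and -0.09 in siG9a, and at -0.006 and -0.08 in siGLP.

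Trim25 encodes a ubiquitin ligase known for activating RIG-I. Its log2 signals were 7.80, 7.67 and 7.66 in siG9a, 7.28 and 7.04 in siGLP, and 7.44 and 7.30 in Control. The 3 groups did not overlap, with siG9a above Control and siGLP below it, by 0.34 (SE 0.094; limma adjusted p = 0.281) and -0.21 (SE 0.10; limma adjusted p = 0.659). Trim21, a ligase and cytosolic antibody receptor, had 5.26, 5.20 and 5.04 in siG9a, 5.12 and 5.05 in siGLP, and 4.93 and 4.83 in Control. The knockdown arrays were all above Control, by 0.29 in siG9a (SE 0.084; limma adjusted p = 0.304) and 0.20 in siGLP (SE 0.092; limma adjusted p = 0.614). Trim30a, a mouse ligase that dampens Toll-like receptor signalling, went the other way, with 3.23, 3.07 and 2.98 in siG9a, 2.89 and 2.85 in siGLP, and 3.30 and 3.46 in Control. It stood at -0.29 in siG9a (limma adjusted p = 0.346) and -0.52 in siGLP (SE 0.10; limma adjusted p = 0.225), but only Control 2 exceeded the lower quartile of its array, so the probe set may not have been above background.

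The IFIT proteins bind viral RNA and the IFITM proteins block the entry of viruses at membranes. Of 6 measured, 5 lay above Control in siG9a (median 0.06) and 4 in siGLP (median 0.09). Ifit1 had log2 signals of 5.10, 5.12 and 5.55 in siG9a, 5.85 and 5.39 in siGLP, and 5.36 and 4.87 in Control. Its siG9a arrays overlapped Control and its siGLP arrays did not, with differences of 0.14 in siG9a and 0.51 in siGLP (SE 0.24; limma adjusted p = 0.63). Ifit2 stood at -0.25 in siG9a and -0.22 in siGLP, and Ifit3 at 0.03 and -0.01. The 3 IFIT genes lie on chromosome 19, and close copies such as Ifit3b can share signal with them. Ifitm1 had 4.53, 4.47 and 4.46 in siG9a, 4.90 and 4.54 in siGLP, and 4.46 and 4.34 in Control, with differences of 0.09 in siG9a and 0.32 in siGLP (limma adjusted p = 0.525). Ifitm2 and Ifitm3, whose probe sets were among the brighter ones, stayed within 9.76 to 9.86 and 10.72 to 11.03 over all 7 arrays. They stood at 0.03 and 0.11 in siG9a, and at 0.04 and 0.13 in siGLP.

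Of 11 other antiviral effectors, 9 lay above Control in siG9a (median 0.11) and 6 in siGLP (median 0.06), and Xaf1 and Gbp3 had the largest differences. Xaf1, a partner of the apoptosis inhibitor XIAP, had log2 signals of 5.34, 4.96 and 5.17 in siG9a, 5.54 and 4.90 in siGLP, and 4.74 and 4.52 in Control. Neither Control array reached any knockdown array, the spread was widest in siGLP, and the difference was 0.53 in siG9a (SE 0.20, 1.44-fold; limma adjusted p = 0.421) and 0.59 in siGLP (SE 0.22, 1.51-fold; limma adjusted p = 0.516). Gbp3, a GTPase of the guanylate-binding family, had 3.98, 3.74 and 4.05 in siG9a, 4.14 and 3.88 in siGLP, and 3.69 and 3.36 in Control. The knockdown arrays again lay above Control, by 0.40 in siG9a (SE 0.14, 1.32-fold; limma adjusted p = 0.39) and 0.49 in siGLP (SE 0.15, 1.40-fold; limma adjusted p = 0.434). Gbp3 was dim, below the median of all probe sets on every array, and Control 2 lay near the lower quartile (3.32 to 3.36). Samd9l, a restriction factor for viruses, had 4.66, 4.56 and 4.70 in siG9a, 3.96 and 4.40 in siGLP, and 4.48 and 4.33 in Control. It stood at 0.24 in siG9a and -0.22 in siGLP, with siG9a above all other arrays.

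The other 8 effectors had smaller differences from Control than Xaf1 and Gbp3. Rsad2, which encodes viperin, stood at 0.05 in siG9a and -0.02 in siGLP. Mx1 and Mx2, antiviral GTPases, stood at 0.11 and 0.06 in siG9a, and at 0.12 and -0.09 in siGLP, and Mx1 lay between 2.59 and 2.86 on all arrays, below each array's lower quartile. Cmpk2, a mitochondrial nucleotide kinase, had 3.97, 3.93 and 3.93 in siG9a, 3.93 and 4.07 in siGLP, and 3.93 and 3.93 in Control. Isg20, an exonuclease, stood at 0.18 in siG9a and 0.25 in siGLP, and Ifi35 at 0.22 and 0.06. Bst2, which encodes tetherin, varied more within groups than between them, with 5.55, 4.65 and 5.06 in siG9a, 5.50 and 5.21 in siGLP, and 5.65 and 5.08 in Control. It stood at -0.28 in siG9a and -0.01 in siGLP. Rtp4 stood at -0.09 in siG9a and -0.005 in siGLP.

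The transcription factors of the response were read on every array, and 3 of the 4 lay above Control in siG9a (median 0.05) and 3 in siGLP (median 0.05). Irf9, which encodes the DNA-binding partner of STAT2, had log2 signals of 5.89, 5.67 and 5.39 in siG9a, 5.71 and 5.51 in siGLP, and 5.23 and 5.33 in Control. The knockdown arrays lay above Control, siG9a 3 only narrowly, and the difference was 0.37 in siG9a (SE 0.15; limma adjusted p = 0.451) and 0.32 in siGLP (SE 0.16; limma adjusted p = 0.663). Its partner Stat2 had 6.42, 5.94 and 6.34 in siG9a, 6.57 and 6.41 in siGLP, and 6.46 and 6.34 in Control. Those groups overlapped, at -0.17 in siG9a (limma adjusted p = 0.731) and 0.09 in siGLP (limma adjusted p = 0.922). Irf7, the factor that amplifies interferon production, had 4.68, 4.88 and 4.72 in siG9a, 4.63 and 4.50 in siGLP, and 4.75 and 4.68 in Control. It stood at 0.05 in siG9a (limma adjusted p = 0.885) and -0.15 in siGLP (limma adjusted p = 0.735), with siGLP below the other groups. Irf1, a factor induced by interferon gamma, had 6.73, 6.43 and 6.58 in siG9a, 6.53 and 6.53 in siGLP, and 6.53 and 6.53 in Control, and stood at 0.05 in siG9a and 0.002 in siGLP.

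**Figure D2:**
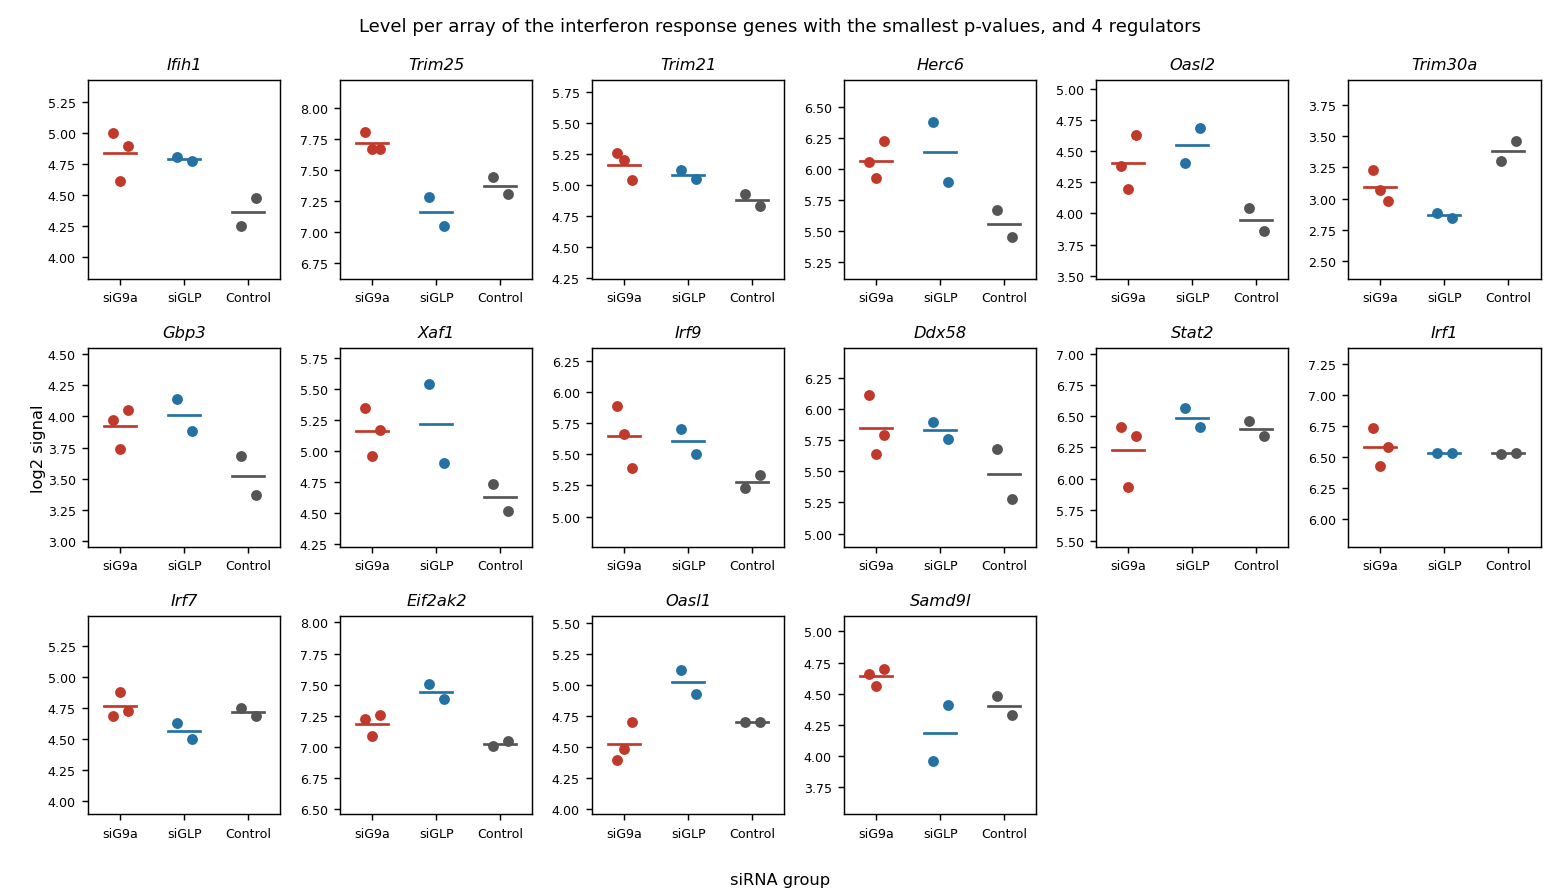
Log2 signal per array (points) and group mean (lines) for the 16 interferon response genes chosen by p-value or as regulators, in siG9a (red, 3 arrays), siGLP (blue, 2 arrays) and Control (grey, 2 arrays); all panels span 1.6 log2 units. Ifih1, Herc6, Oasl2, Xaf1 and Gbp3 have every knockdown array above Control, Trim30a has every one below, and in Trim25 siG9a lies above Control and siGLP below.

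The comparison of siGLP with siG9a tests directly whether the 2 knockdowns differed. Of the 38 genes, 21 were higher in siGLP and 17 lower, with a median log2 difference of 0.008, against 48.6% of all genes higher and a median of -0.004. None passed, where 0.234% of all genes did. At an unadjusted p under 0.05, 2 were higher (5.26%, against 5.87% of all genes) and 3 lower (7.89%, against 6.57%). The arrays did not overlap for 5 genes higher in siGLP (13.2%, against 12.1% of all genes) and 4 lower (10.5%, against 14.2%). These shares are near those of all genes. The counts moved most with the siGLP arrays, to 13 higher without siGLP 2 (34.2%, against 25.6%) and 13 lower without siGLP 1 (34.2%, against 27.4%). Without siG9a 1 there were 8 higher (21.1%, against 17.7%), and without siG9a 2 or siG9a 3 there were 7 and 8 lower (18.4% and 21.1%, against 20.2% and 18.7%). The smallest p belonged to Trim25, at -0.55 (SE 0.094, 95% interval -0.77 to -0.33; limma adjusted p = 0.0826). Oasl1 followed at 0.50 (interval 0.24 to 0.75; limma adjusted p = 0.135), then Samd9l at -0.46 (interval -0.77 to -0.14; limma adjusted p = 0.238) and Eif2ak2 at 0.26 (interval 0.076 to 0.44; limma adjusted p = 0.247). Trim30a stood at -0.23 and Irf7 at -0.20 (limma adjusted p = 0.391 and 0.41). The unadjusted limma p was under 0.05 for Trim30a and not for Irf7.

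Among the genes whose siG9a and siGLP arrays all lay above both Control arrays, Eif2ak2 was the one whose direct interval excluded 0. Ifih1 was at -0.05 (95% interval -0.35 to 0.25), Herc6 at 0.07 (interval -0.31 to 0.45) and Oasl2 at 0.14 (interval -0.20 to 0.49). Xaf1 was at 0.06 (interval -0.41 to 0.54), Gbp3 at 0.09 (interval -0.24 to 0.42) and Irf9 at -0.04 (interval -0.39 to 0.31). Trim21 was at -0.08 (interval -0.28 to 0.12) and Ifitm1 at 0.23 (interval -0.027 to 0.50). These intervals other than that of Eif2ak2 include 0, which does not show that the knockdowns acted alike on them. The share of all genes with every knockdown array above both Control arrays was not counted. Both comparisons also use the same Control arrays, so this grouping is only a description.

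**Figure D3:**
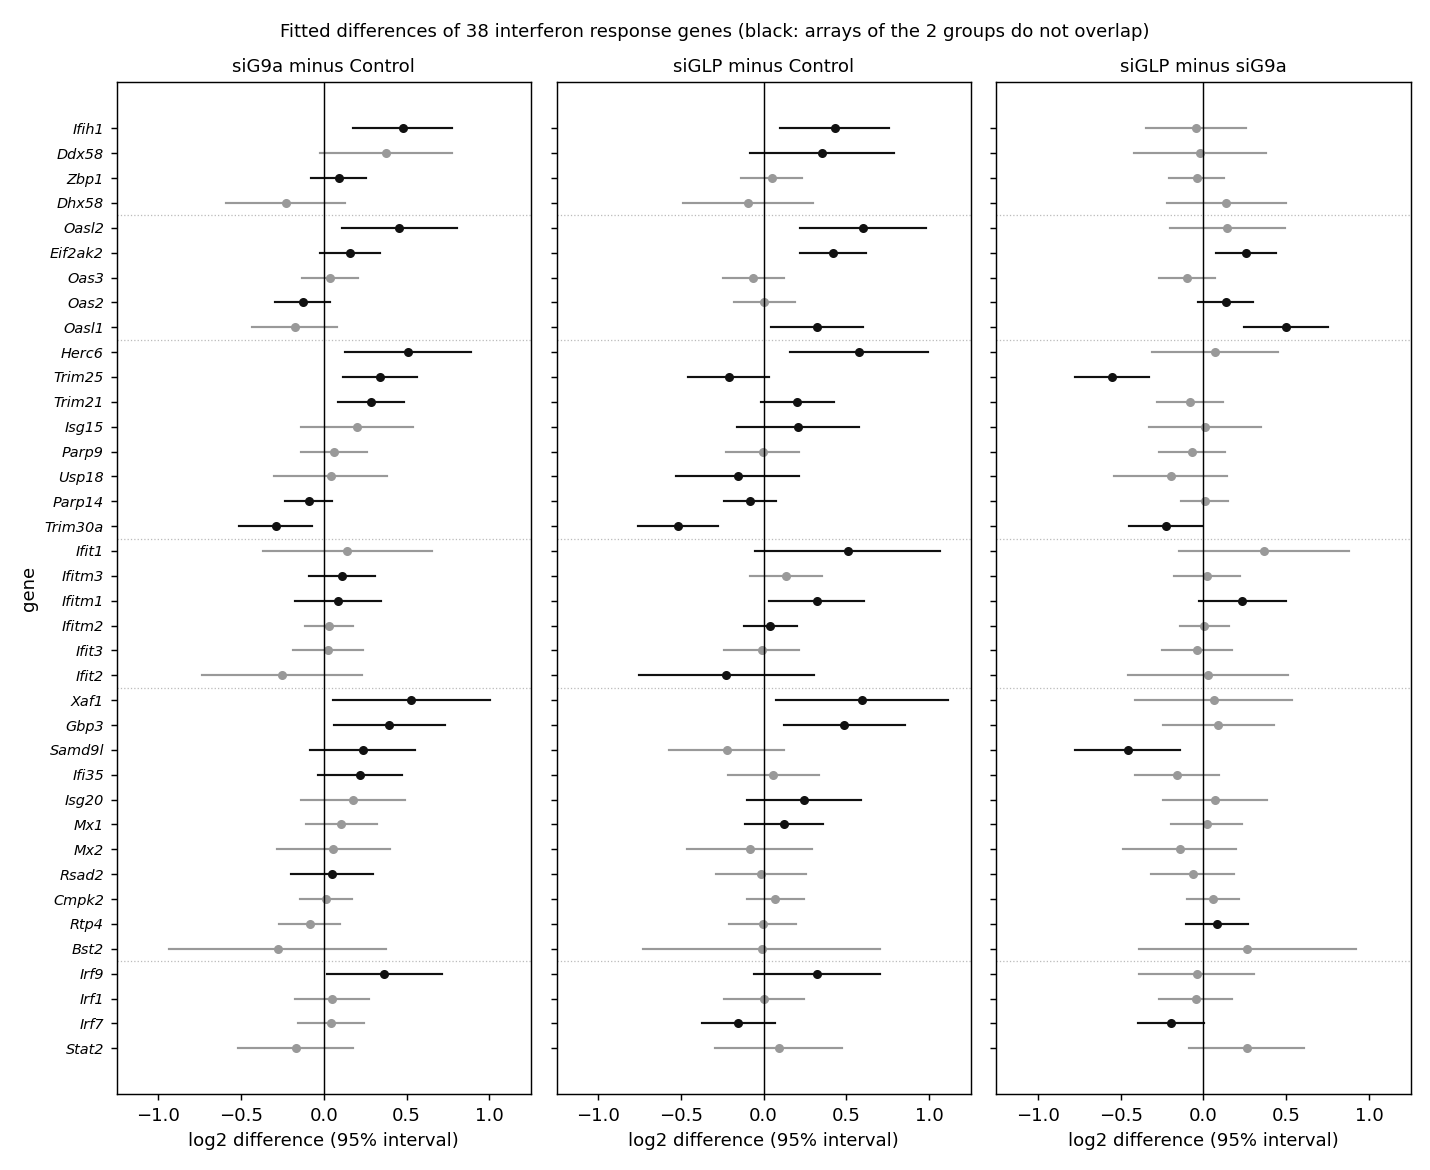
Fitted log2 difference (points) with its 95% interval (bars) for 38 interferon response genes, grouped by role, in 3 panels, siG9a against Control on the left, siGLP against Control in the middle and siGLP against siG9a on the right; black marks genes whose arrays do not overlap between the 2 groups. Most intervals include 0, and in the third panel those of Trim25, Samd9l, Oasl1, Eif2ak2 and Trim30a exclude it.

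The values were also set out by promoter motif, as a description with no test. The 15 genes with an ISRE match had a median difference of 0.11 in siG9a and 0.13 in siGLP, with 12 and 10 of them above Control. The 14 genes whose windows lacked it, among them Herc6, Oasl2, Xaf1 and Trim25, had a median of 0.20 in siG9a and 0.16 in siGLP, with 12 and 10 above Control. The 9 genes with no window had a median of 0.041 in siG9a and -0.006 in siGLP, with 5 and 3 above Control. The absence of a match says only that these letters are not in the window.

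The rest of the pathway was read from further lists. No interferon gene itself passed, and of 19 measured ligands 9 lay above and 10 below Control in siG9a (median -0.018), and 9 above and 10 below in siGLP (median -0.027). The ligands with the smallest p-values were Ifna2, at -0.41 in siG9a and -0.17 in siGLP, Ifng, at -0.02 and -0.33, and Ifna1, at -0.25 and 0.01. Interferon alpha genes are close copies of each other, so their probe sets are uncertain. Ifna2 lay between 2.65 and 3.29 on all arrays, below each array's lower quartile.

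Of 9 receptors and JAK kinases, 8 lay above Control in siG9a (median 0.15) and 4 in siGLP (median -0.006), and none passed. Tyk2, a kinase of the type I receptor, had log2 signals of 7.01, 6.68 and 6.59 in siG9a, 6.29 and 6.15 in siGLP, and 6.15 and 6.37 in Control, with siG9a above the other arrays (0.50; limma adjusted p = 0.281). Il10rb, a receptor chain shared by the lambda interferons, had 6.98, 6.97 and 7.13 in siG9a, 6.52 and 6.74 in siGLP, and 6.53 and 6.67 in Control (0.43 in siG9a; limma adjusted p = 0.189). Ifngr2, a chain of the interferon gamma receptor, stood at 0.22 in siG9a and -0.05 in siGLP. In siGLP minus siG9a, these 3 stood at -0.53, -0.40 and -0.27, with limma adjusted p from 0.168 to 0.258.

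Of 15 genes that induce interferon, 12 lay above Control in siG9a (median 0.14) and 11 in siGLP (median 0.089), and none passed. Sting1, the adaptor of DNA sensing, had log2 signals of 7.56, 7.41 and 7.46 in siG9a, 7.47 and 7.58 in siGLP, and 7.05 and 7.14 in Control. Each knockdown array exceeded Control, by 0.38 in siG9a (SE 0.075, 1.30-fold; limma adjusted p = 0.157) and 0.43 in siGLP (SE 0.083, 1.35-fold; limma adjusted p = 0.219). The DNA sensor gene Cgas, which acts just before Sting1, stood at -0.31 in siG9a and -0.09 in siGLP, and the NF-kB subunit gene Rela at 0.30 and 0.05. Of 11 brakes and enzymes of nucleic acid removal, 8 lay above Control in siG9a (median 0.034) and 6 in siGLP (median 0.023), with Samhd1 at 0.21 and 0.27, Socs1 at 0.20 and 0.10, and Ptpn2 at -0.14 and 0.03. None of the 11 passed.

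Of 38 further interferon-induced genes, 32 lay above Control in siG9a (median 0.12) and 25 in siGLP (median 0.12), and none passed. Tdrd7, which encodes a tudor protein with antiviral activity, had log2 signals of 7.71, 7.58 and 7.69 in siG9a, 7.56 and 7.37 in siGLP, and 7.08 and 7.15 in Control. All knockdown arrays exceeded Control, by 0.55 in siG9a (SE 0.083, 1.46-fold; limma adjusted p = 0.108) and 0.35 in siGLP (SE 0.091; limma adjusted p = 0.341). Tdrd7 and Tor3a did pass in siG9a when genes dimmer than the median were removed, as set out under the alternatives. Tor3a stood at 0.38 in siG9a and 0.09 in siGLP. Ms4a4c stood at -0.16 and 0.49 but lay between 1.92 and 2.78 on all arrays, below each lower quartile. On each array the median of these 38 genes was 0.12, 0.056 and 0.11 in siG9a, 0.093 and 0.087 in siGLP, and 0.0059 and -0.0059 in Control. Here too the Control values mirror each other by construction and do not measure how well Control replicates.

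**Figure D4:**
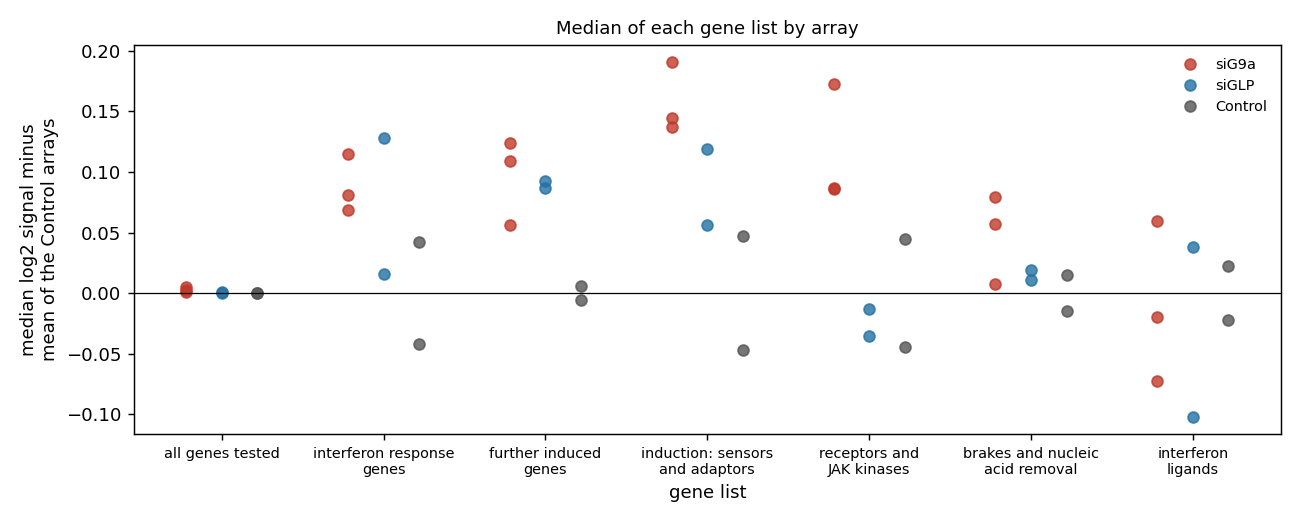
Median over each gene list of the log2 signal minus the mean of the Control arrays, with 1 point per array for siG9a (red), siGLP (blue) and Control (grey). For the interferon response genes the siG9a arrays lie at 0.068 to 0.11 and siGLP at 0.016 and 0.13, while all genes tested lie near 0; the ligands show no separation of the groups.

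Values near background limit these results. Of the 38 interferon response genes, 17 lay above the median of each array (4.54 to 4.59), 10 lay below it on every array and 3 were under the lower quartile on at least 1 array. Oasl1, Oas3, Irf1, Ifitm2, Cmpk2 and Parp14 had the same value on 3 or more arrays, as did 21.4% of all genes, so the spread of these genes between arrays may be understated.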

How the data were processed

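RNA of 7 C2C12 samples was measured on single-colour Affymetrix arrays. Values deposited by the authors are log2 signals of probe sets, made with RMA per the submitters' processing notes, which also name Partek, both without versions. RMA equalises the distribution between arrays and compresses dim signals. The log2 scale was taken from the range of the values, and the array's genome build was not given in the sources used here.

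Of 33649 probe sets, 23521 carried 1 gene symbol, 1814 several and 8314 none. Of the 23521, 23328 were brought to current symbols by gene number from RefSeq (GRCm38.p6). The brightest probe set of each gene was kept, leaving 22180 genes, with no filter on level. Limma 3.58.1 in R 4.3.3 fitted 1 mean per group over all 7 arrays (lmFit and eBayes, 4 residual degrees of freedom, 6.89 with moderation), with two-sided p-values and Benjamini-Hochberg adjustment over all genes. A gene passed at an adjusted p under 0.05. The procedure was also run on simulated data, drawn as independent normal values without the repeated values seen here. That run does not measure how it performs on these arrays.

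The members and lists were chosen with earlier results of these data known. Values per array are given for the 10 members with the smallest p in siG9a, 6 in siGLP and 6 in siGLP minus siG9a, for Stat2, Irf1, Irf7 and Irf9, and for Isg15, Ifit1, Ifitm1, Cmpk2 and Bst2, chosen after their values were seen, as was Cd68. Other lists name up to 3 genes by p. Promoter windows came from the RefSeq table, with a window for 29 of 38 members. The alternatives were 9 changes of filter, normalization, variance model, samples, replicate block or probe set, and each of the 7 arrays left out.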

Additional observations from a re-analysis of the deposited data

Results flagged for a closer look

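Trim25 drew attention because all 3 siG9a arrays lay above both Control arrays (log2 difference 0.34) and both siGLP arrays lay below them (-0.21). The direct difference, siGLP minus siG9a, was -0.55, short of the threshold (limma adjusted p = 0.0826 over all genes). It passed when dim genes, below the median of the levels, were removed (limma adjusted p = 0.0291) and with a trended, robust variance model (0.0363), and over the 7 fits that left out 1 array it ranged from -0.67 to -0.43 with limma adjusted p from 0.178 to 0.249.

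The probe set shared by Gbp2 and its close relative Gbp2b was outside the comparisons. Its log2 signals were 4.42, 4.17 and 4.10 in siG9a, 3.79 and 3.81 in siGLP, and 3.70 and 3.51 in Control. All knockdown arrays exceeded Control, by 0.63 in siG9a and 0.20 in siGLP, and these differences were not tested. The signal cannot be assigned to either gene. The probe set shared by Dtx3l and Parp9 stood at -0.05 in siG9a and -0.11 in siGLP, with overlapping arrays.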

How the results depend on the processing

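No interferon response gene passed in either contrast with Control under any alternative or with any array left out, and the median over them stayed above 0 there. It was 0.16 in siG9a and 0.13 in siGLP over the genes left when those under the median level were removed, and without single arrays it ran from 0.056 to 0.099 in siG9a and from 0.016 to 0.13 in siGLP. In siGLP minus siG9a the median took the other sign with quantile normalization (-7e-04), with the replicate block (-0.012) and without single arrays (-0.055 to 0.038), and Trim25, 1 gene, passed with genes below the median left out and with a trended, robust variance, which moderates the variances differently. The number of all genes passing depended most on the setting. It was 30, 148, 16 and 100 in siG9a minus Control (6 as reported) with genes below the 30th percentile left out, genes below the median left out, quantile normalization and trended robust variance. In siGLP minus Control (1 as reported) it was 21 with genes below the median left out and 23 with trended robust variance. In siGLP minus siG9a (52 as reported) it was 171, 350 and 304 with the 30th percentile, the median and the trended variance. Without variance moderation the limma counts were 0, 0 and 3, and with only the 2 groups compared they were 0, 0 and 0, fits with fewer degrees of freedom. Without moderation the interferon response genes at an unadjusted p under 0.05 were 3 above Control in siG9a (7.89%, against 4.90% of all genes) and 2 below (5.26%, against 4.10%). In siGLP they were 2 above (5.26%, against 3.91%) and 1 below (2.63%, against 3.76%). With 1 siG9a array left out, the number of all genes passing was 0 in siG9a minus Control, 0 to 1 in siGLP minus Control and 0 in siGLP minus siG9a. Correlations of same-numbered deviations ran from 0.005 to 0.172. With so few arrays per group they cannot decide whether replicate numbers pair the samples, and the labels do not say. Only siG9a has a replicate 3, so the block fitted siG9a 3 by itself and that array no longer informed the differences. The block is therefore no separate check of pairing for the siG9a differences. With the replicate block 0 genes passed in each contrast. Interferon response genes at an unadjusted p under 0.05 then numbered 9 above Control in siG9a (23.7%, against 5.41% of all genes) and 13 in siGLP (34.2%, against 5.02%). Below Control there were 2 in each (5.26%, against 4.37% of all genes in siG9a and 4.31% in siGLP). Ifit1 (-0.004) and Mx2 (-0.017) took the other sign in siG9a with the block, and had the same values without siG9a 3. The median in siGLP minus siG9a (-0.012) was likewise the same in both. Quantile normalization turned Ifit3 in siG9a (-0.005), Irf1 in siGLP (-0.013) and Oas2 in siGLP (-0.0051), and cyclic loess turned Irf1 (-0.0018) and Oas2 (-0.0013) in siGLP, all values near 0. Of 121 single-gene differences recomputed, 1798 of 1861 values kept direction and side of the threshold, and 27 differences changed sign at least once. Only Ehmt2 in siG9a had passed as reported, and several settings leave the difference itself unchanged, so this count says little about robustness. The values that newly passed were those of Trim25 in siGLP minus siG9a, and of Tdrd7, Tor3a and Cd68 in siG9a minus Control. Leaving out 1 array turned the sign of the differences listed next, whose main values were small or whose groups varied; the cause was not tested. In siG9a minus Control these ranges were Bst2 -0.56 to 0.0062, Ifit1 -0.11 to 0.39, Ifit3 -0.10 to 0.16, Ifng -0.19 to 0.15, Irf1 -0.025 to 0.13, Irf7 -0.015 to 0.086, Mx2 -0.017 to 0.15 and Usp18 -0.037 to 0.19. In siGLP minus Control they were Bst2 -0.30 to 0.27, Cgas -0.21 to 0.023, Dhx58 -0.27 to 0.086, Ifi35 -0.020 to 0.14, Ifit3 -0.14 to 0.12, Ifna1 -0.21 to 0.24, Il10rb -0.072 to 0.14, Mx2 -0.29 to 0.12, Oas2 -0.010 to 0.021, Parp9 -0.069 to 0.057, Rela -0.023 to 0.12, Rsad2 -0.19 to 0.16, Rtp4 -0.059 to 0.049, Samd9l -0.45 to 0.0008, Tyk2 -0.14 to 0.073 and Zbp1 -0.0086 to 0.10. In siGLP minus siG9a they were Irf1 -0.12 to 0.027 and Irf9 -0.17 to 0.079. The number of arrays, and probe sets near background such as Mx1, Mx2 and Trim30a, limit all of these values.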
